A study of Mus musculus with 32 samples.

Results

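The eosinophil granule genes Prg2, Prg3, Epx, Ear1, Ear2 and Ear6 were chosen by name, as 6 of the 33924 rows of a gene count table, and followed through 32 RNA libraries made from cells sorted from mouse marrow. All mice carried bone marrow in which Jak2V617F, the activated Jak2 allele of myeloproliferative neoplasms, had been switched on outside the body with mRNA for the Dre recombinase before transplantation into lethally irradiated recipients. LSK cells, the lineage-negative fraction positive for Sca1 and Kit that holds the blood stem cells, were sequenced on day 3 of tamoxifen (3 libraries, batch A), on day 7 of tamoxifen (4 libraries, batch A), after 7 days of the JAK inhibitor ruxolitinib (3 libraries, batch C), and from vehicle-treated mice labelled day 0 (4 libraries in batch A and 2 in batch C). MEPs, the progenitors of megakaryocytes and red cells, were sequenced from the same conditions (4, 3 and 3 libraries of the treated groups, and vehicle libraries numbering 3 in batch A and 3 in batch C). Tamoxifen activates a Cre that deletes Jak2V617F, so the tamoxifen groups ask what follows the loss of the allele and the ruxolitinib groups what follows inhibition of the kinase. All vehicle libraries are labelled day 0, and no group had tamoxifen without the deletable allele. Loss of the allele therefore cannot be told apart from tamoxifen itself or from elapsed time, nor ruxolitinib from elapsed time. The labels do not name the promoter that drives the recombinase, do not give ages, and name no marker that separated transplanted cells from any recipient cells left. Gene counts do not separate the mutant from the normal Jak2 allele, so the deletion was not checked here.

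Eosinophils store basic proteins in their granules and release them against parasites and in allergic inflammation. Prg2 encodes major basic protein, the core of the granule, and Prg3 encodes a second protein of the same family. Epx encodes eosinophil peroxidase. Ear1, Ear2 and Ear6 encode mouse eosinophil-associated ribonucleases, a family that has multiplied in rodents and of which some members are also made by macrophages. In marrow, these genes are switched on as progenitors commit to the eosinophil lineage under GATA and C/EBP factors and the cytokine IL-5, and their RNA reaches very high levels in eosinophil precursors.

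In the mouse annotation (GENCODE M21, build mm10) the members are protein coding and lie in 3 places. Prg2 (chr2:84980461-84983632, plus strand) and Prg3 (chr2:84988215-84993886, plus strand) are neighbours. Epx is at chr11:87864000-87875536 on the minus strand. Ear1 (chr14:43818765-43875517, minus strand), Ear2 (chr14:44102654-44103534, plus strand) and Ear6 (chr14:51853699-51854643, plus strand) share chromosome 14. The coding sequences of Ear1 and Ear2 were 95.1% identical, and 23.8% of the 50-base words of the Ear1 transcript also occur in the Ear2 transcript. Ear2 was 97.0% identical to Ear10, which is no member. Counts of the Ear genes are therefore uncertain, since reads can be shared between copies. Prg2 and Prg3 were 63.6% identical and shared no 50-base word.

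The 250 bases before the RefSeq start (build GRCm38.p6) were matched for 5 of the 6 members, and 4 of them are shown because the results turn on whether these genes moved together. Prg3 and Epx moved closely with Prg2 over the LSK libraries. Ear1 and Ear2 parted in some of them, and the sequences before their RefSeq starts were 97.6% identical. The Ear1 stretch lies within the GENCODE span of the gene given above, so GENCODE and RefSeq place the Ear1 start differently. The Prg3 stretch is chr2:84987965-84988214 on the plus strand, the Epx stretch chr11:87875537-87875786 on the minus strand, the Ear1 stretch chr14:43819640-43819889 on the minus strand and the Ear2 stretch chr14:44102404-44102653 on the plus strand. Each is written 5′ to 3′ along its gene, and capitals mark matches to GATAA, TTGCNNAA or CCAAT, each searched on both strands; no matches overlap.
Prg3: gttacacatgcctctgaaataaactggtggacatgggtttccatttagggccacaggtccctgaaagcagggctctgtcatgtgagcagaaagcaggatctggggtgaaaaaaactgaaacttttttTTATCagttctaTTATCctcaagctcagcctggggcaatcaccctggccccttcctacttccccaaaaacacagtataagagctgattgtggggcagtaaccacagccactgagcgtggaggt
Epx: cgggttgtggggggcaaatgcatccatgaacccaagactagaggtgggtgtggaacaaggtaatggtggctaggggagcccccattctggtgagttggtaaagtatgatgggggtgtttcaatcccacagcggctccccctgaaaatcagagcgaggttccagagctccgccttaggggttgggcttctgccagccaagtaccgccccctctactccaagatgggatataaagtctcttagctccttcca
Ear1: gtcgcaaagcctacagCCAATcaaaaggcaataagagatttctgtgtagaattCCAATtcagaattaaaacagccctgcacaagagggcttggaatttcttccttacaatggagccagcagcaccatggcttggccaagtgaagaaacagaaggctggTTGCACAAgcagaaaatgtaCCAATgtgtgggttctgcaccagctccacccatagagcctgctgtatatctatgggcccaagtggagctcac
Ear2: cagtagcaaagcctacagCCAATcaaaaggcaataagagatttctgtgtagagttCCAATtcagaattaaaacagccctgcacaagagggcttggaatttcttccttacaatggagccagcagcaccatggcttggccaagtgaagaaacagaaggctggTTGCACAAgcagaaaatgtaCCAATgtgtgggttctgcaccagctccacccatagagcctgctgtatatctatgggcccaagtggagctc
Prg3 held 2 matches to GATAA, the core recognised by GATA factors, both on the reverse strand; 22.6% of 32851 mouse stretches of the same length held at least 1. Ear1 and Ear2 each held 1 match to TTGCNNAA, a form of the C/EBP site, which 9.56% of the stretches held, and 3 matches to CCAAT, which 33.8% held. Ear6 held 1 match to CCAAT. Epx held no match to any of the 3 motifs in this window. A match is a description of letters and not of binding.

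Library totals lay between 11160696 and 28838622 counts in batch A and between 26511752 and 55473241 in batch C. Levels are given as CPM (counts scaled to library size) after TMM scaling within the cell type. Libraries are named by the number in their labels; the vehicle libraries of batch C carry numbers that also occur in batch A (12 and 18 in LSK cells; 12, 32 and 33 in MEPs), and the labels do not say whether a number stands for a mouse. Defining genes differed between the sorts, but not every sum kept them apart. The summed level of 7 LSK-defining genes was 992 to 4474 CPM in LSK libraries and 201 to 1256 CPM in MEP libraries. These ranges overlapped, with LSK day 3 library 6 at 992 CPM and MEP day 7 library 7 at 1256 CPM. The sum of 7 MEP and erythroid genes did not overlap, at 5278 to 13060 CPM in MEPs and 431 to 3070 CPM in LSK cells. Genes of other cell types were high in some LSK libraries. Marrow macrophage genes summed to 12440 CPM in day 3 library 6, and B lineage genes to 7963 CPM in vehicle library 8 of batch A. Ly6a, which encodes Sca1, was at 14.4 to 204 CPM in LSK libraries and at most at 1.33 CPM in MEP libraries. In bulk samples, fewer cells of a type and less RNA per cell cannot be told apart. No label says that libraries came from separate animals, so p-values measure the spread between these libraries.

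In LSK cells, 3 vehicle libraries stood far above all others for the granule genes, and the treatment values that follow rest on them. The 6 genes together took 0.769% of all counts in vehicle library 12 of batch A, 0.526% in vehicle library 14 of batch A and 0.774% in vehicle library 12 of batch C. They took 0.00726% and 0.00456% in vehicle libraries 18 and 8 of batch A, and 0.00973% in vehicle library 18 of batch C. Libraries of the same vehicle group thus differed widely, while libraries with the same number were close: batch C over batch A was -0.04 to 0.45 (log2 of CPM) for the 6 genes in number 12 and -0.43 to 0.83 in number 18. Across 26930 genes the correlation between batches was 0.965 for number 12 and 0.975 for number 18, and 0.911 to 0.968 for libraries with other numbers. Whether libraries with the same number share a source is not stated. The main fits took them as separate, so the high libraries numbered 12 may not be independent.

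Prg2 was the most abundant member in the high libraries. Across batch A its level was 4122, 71.1, 2707 and 27.5 CPM in vehicle LSK libraries 12, 18, 14 and 8, 4.4, 371 and 1.84 CPM in day 3 libraries 25, 29 and 6, and 250, 82.1, 215 and 182 CPM in day 7 libraries 15, 18, 19 and 7. In batch C it was 31.4, 33.5 and 1.40 CPM in ruxolitinib libraries 1, 2 and 3, against 5297 and 110 CPM in vehicle libraries 12 and 18. The day 7 libraries lay close together, between the high and the low vehicle libraries. The day 3 group held a high library, 29, and the groups overlapped at both days, whereas all ruxolitinib libraries lay below both vehicle libraries.

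The peroxidase gene Epx had the same 3 high vehicle libraries as Prg2. Its level was 1856, 13.0, 1290 and 1.66 CPM in the vehicle libraries of batch A, 0.635, 134 and 0.551 CPM on day 3, and 77.4, 35.4, 89.6 and 80.1 CPM on day 7, with libraries in the order given for Prg2. It was 16, 3.74 and 0.680 CPM under ruxolitinib, against 1806 and 21.7 CPM in vehicle of batch C. Library 29 was again the high one of day 3, and the ruxolitinib libraries did not overlap their vehicle libraries.

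Prg3, the second granule basic protein gene, was at 217, 4.52, 139 and 0.616 CPM in vehicle, 0.861, 23.1 and 1.29 CPM on day 3, and 18.0, 7.73, 17.7 and 16 CPM on day 7. Under ruxolitinib it was at 2.65, 2.74 and 1.5 CPM, against 298 and 3.35 CPM in vehicle of batch C. The day 7 values were again tighter than those of any other LSK group of batch A.

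Among the ribonuclease genes, Ear6 was at 142, 1.04, 86.5 and 3.45 CPM in vehicle, 1.77, 5.43 and 1.84 CPM on day 3, and 8.11, 8.75, 5.40 and 8.61 CPM on day 7. It was at 0.132, 1.77 and 0.680 CPM under ruxolitinib, against 176 and 1.86 CPM in vehicle of batch C. Its high libraries were those of Prg2, except that day 3 library 29 stood out less.

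Ear1 was at 45.7, 0.478, 36.9 and 1.11 CPM in vehicle, 0.997, 0.979 and 2.88 CPM on day 3, and 11.8, 8.98, 2.0 and 9.50 CPM on day 7. It was at 0.827, 0.267 and 0.0906 CPM under ruxolitinib, against 58.1 and 0.473 CPM in vehicle of batch C. Day 3 library 29, where Prg2 was high, did not stand out for Ear1, and its highest day 3 value was in library 6.

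Ear2 differed from Prg2 in where it was high on day 3. It was at 44.5, 0.957, 56.6 and 3.26 CPM in vehicle, 16.7, 10.5 and 79.6 CPM on day 3, and 11.3, 8.61, 3.02 and 5.53 CPM on day 7. It was at 1.22, 3.11 and 0.680 CPM under ruxolitinib, against 49.9 and 1.49 CPM in vehicle of batch C. Its highest LSK value of all, 79.6 CPM, was in day 3 library 6, where Prg2 was at 1.84 CPM.

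**Figure D1:**
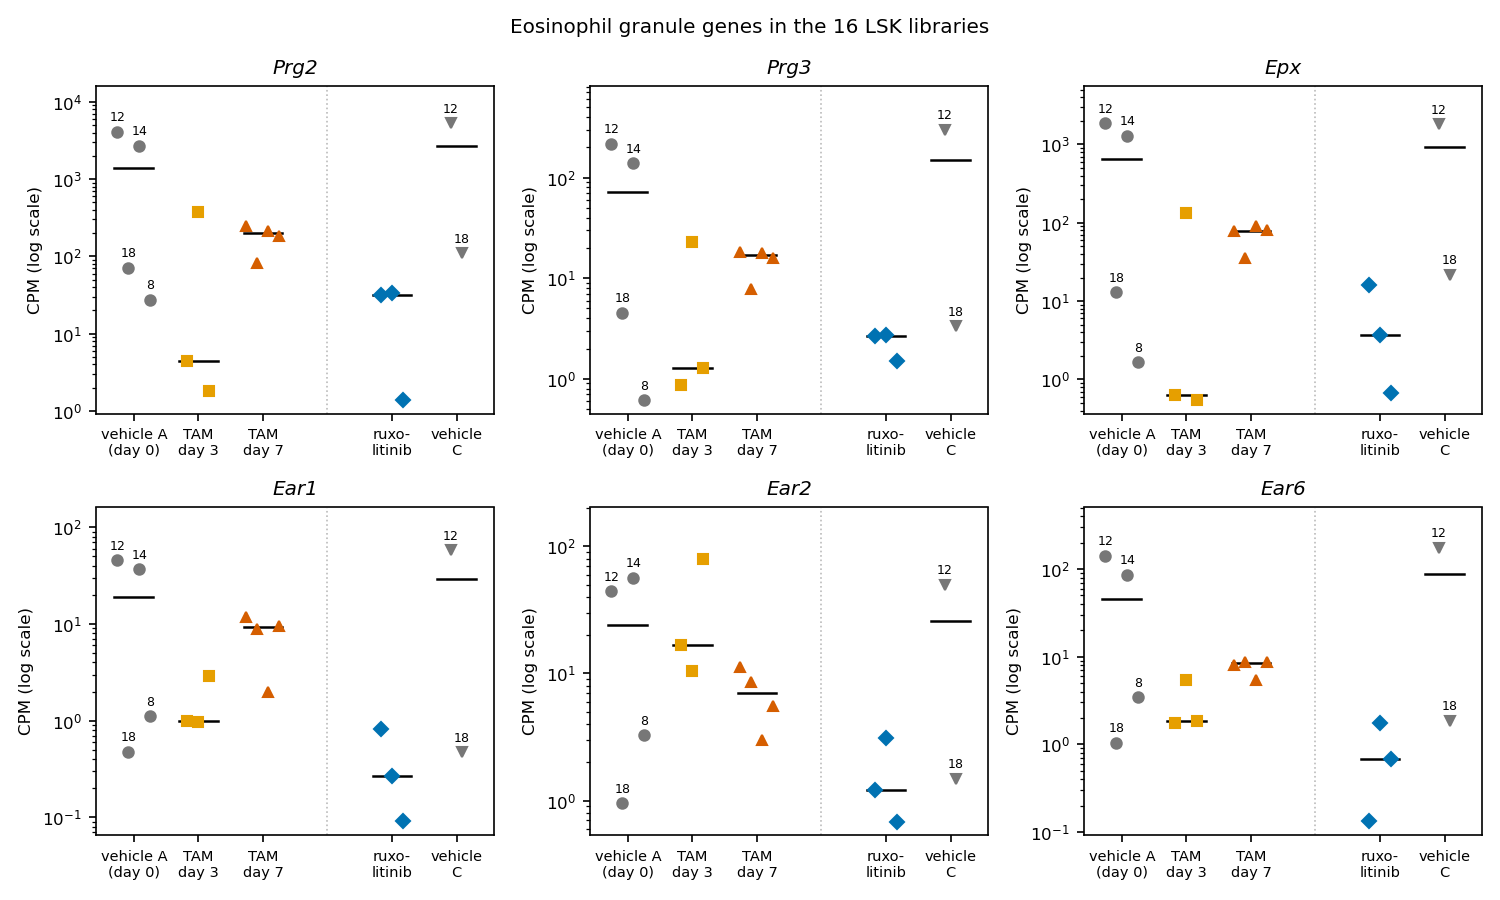
CPM of the 6 granule genes in each LSK library (points, log scale) by group, with group medians as bars and the label numbers of the vehicle libraries printed above them. Vehicle libraries 12 and 14 of batch A and 12 of batch C sit at the top for Prg2, at 2707 to 5297 CPM, while the day 7 libraries sit together at 82.1 to 250 CPM.

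Per kilobase of transcript, the order of levels in vehicle library 12 of batch A was Prg2 (4919 CPM per kilobase), Epx (690.2), Prg3 (229), Ear6 (159), Ear1 (64.0) and Ear2 (61.9). In day 7 library 15 the same scale gave 299 for Prg2, 28.8 for Epx, 19.0 for Prg3, 16.5 for Ear1, 15.8 for Ear2 and 9.08 for Ear6. In day 3 library 6 it gave 111 for Ear2, 4.04 for Ear1 and 2.19 for Prg2. Ear1 and Ear2 stood next to each other in libraries 12 and 15, and Ear2 led in library 6.

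Relative to Prg2, the members kept partly fixed proportions. Over the 13 LSK libraries with at least 100 Prg2 counts, Epx counts were 6.04% to 51.2% of the Prg2 count (median 36.1%) and Prg3 counts 2.24% to 9.41% (median 6.36%). In the 3 high vehicle libraries Prg3 was at 5.13% to 5.62%, Epx at 34.1% to 47.6% and Ear6 at 3.20% to 3.45%. The Prg3 proportion was 7.21%, 9.41%, 8.24% and 8.79% in the day 7 libraries, against 5.28%, 6.36%, 5.13% and 2.24% in the vehicle libraries of batch A. It was 8.44% and 8.18% in the 2 ruxolitinib libraries that reached the minimum, against 5.62% and 3.03% in vehicle of batch C. The proportion of Prg3 to Prg2 therefore did not overlap between day 7 or ruxolitinib and vehicle in these libraries. This was seen in the data, was not tested, and has no share of other gene pairs beside it. On day 7 the proportions of Epx, Ear1, Ear2 and Ear6 overlapped those of vehicle. Under ruxolitinib that of Ear2 did not overlap either (3.90% and 9.28%, against 0.941% and 1.35%). Ruxolitinib library 3, with 33 Prg3 and 31 Prg2 counts, was under the minimum. Ear1, Ear2 and Ear6 varied more, from 0.264% to 10.9%, 0.941% to 11.9% and 0.422% to 12.5%.

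Over the 16 LSK libraries, log2(CPM + 0.5) of Prg3, Epx, Ear6 and Ear1 had Pearson correlations with Prg2 of 0.93, 0.98, 0.85 and 0.76 (Spearman 0.96, 0.97, 0.83 and 0.67), and that of Ear2 had 0.41 (Spearman 0.41). These are descriptions over libraries that share sequencing batches and label numbers. Ear2 correlated at 0.73 (Spearman 0.89) with the summed level of a list of 10 marrow macrophage genes and at 0.79 (Spearman 0.86) with Ccr3, the eotaxin receptor. Prg2 correlated with that macrophage sum at -0.063 (Spearman 0.26) and with Ccr3 at 0.13 (Spearman 0.37). Ear1 and Ear6 lay between, at 0.22 and 0.17 with the macrophage sum (Spearman 0.59 and 0.49). With Ccr3 they were at 0.38 and 0.36 (Spearman 0.59 and 0.5).

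The macrophage list (Adgre1, listed as Emr1, with C1qa, C1qb, C1qc, Vcam1, Cd5l, Axl, Mertk, Spic and Hmox1) summed to 4713 CPM in vehicle library 14 and 153 to 211 CPM in the other 3 vehicle libraries of batch A, to 3338, 1826 and 12440 CPM in day 3 libraries 25, 29 and 6, and to 152 to 432 CPM on day 7. It was 61.9 to 125 CPM under ruxolitinib, against 159 and 204 CPM in vehicle of batch C. Ccr3 was at 235 CPM in vehicle library 14 and 2.28 to 7.81 CPM in the other vehicle libraries of batch A, at 86.7, 40.5 and 154 CPM on day 3, and at 3.18 to 13.4 CPM on day 7. Ear2 was thus high both in libraries with high macrophage genes and low Prg2, as in day 3 library 6, and in library 12, where Prg2 was high and the macrophage sum was not. The part of macrophage RNA in the Ear2 level was not tested.

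**Figure D2:**
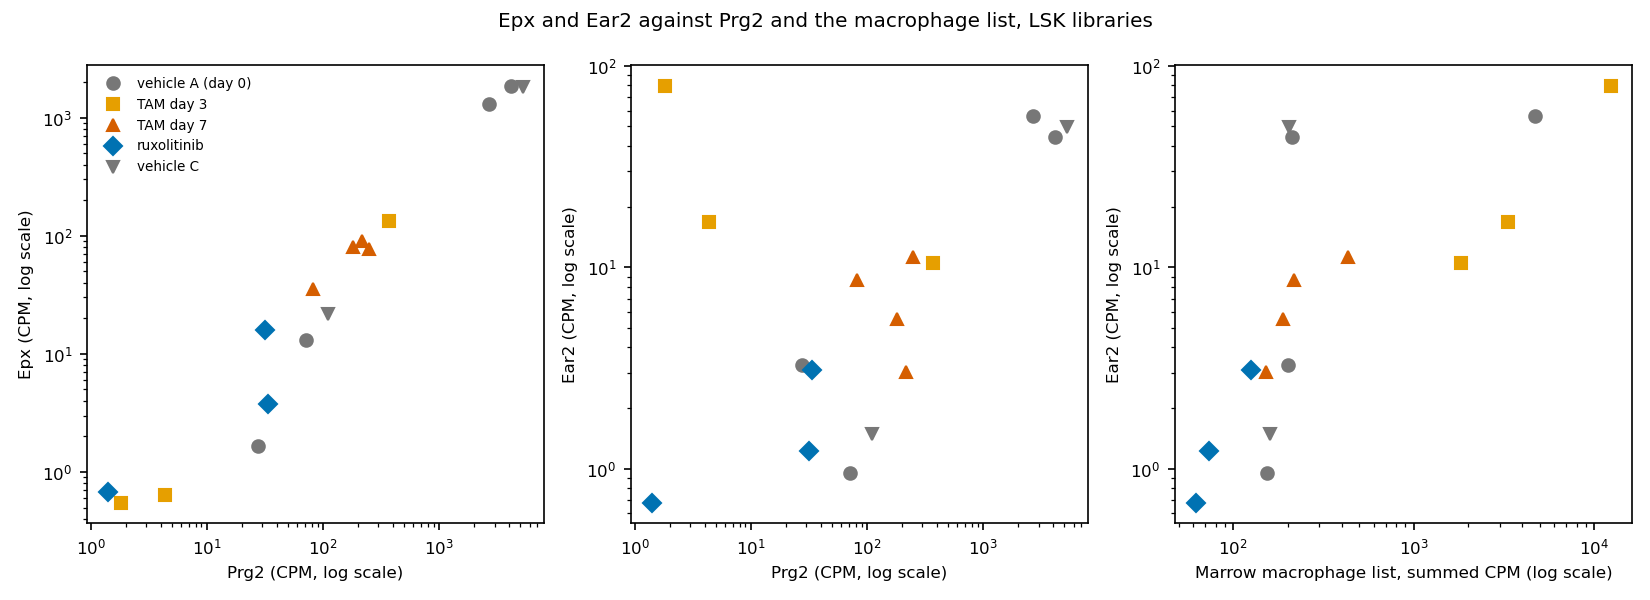
Epx against Prg2 (left), Ear2 against Prg2 (middle) and Ear2 against the summed marrow macrophage list (right) in the 16 LSK libraries, in CPM on log scales, with symbols for the groups. Epx and Prg2 fall along one line, whereas Ear2 is at 79.6 CPM in the library with the highest macrophage sum, 12440 CPM, where Prg2 is at 1.84 CPM.

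None of 3 lists of other eosinophil genes was high in all 3 of the high libraries. The 8 receptor and surface genes summed to 121 and 140 CPM in vehicle libraries 12 of batch A and batch C, the lowest values of all LSK libraries, and to 367 CPM in vehicle library 14, of which Ccr3 was 235 CPM; the other vehicle libraries held 248 to 528 CPM. In that list Csf2rb, the shared signalling chain of the IL-5, IL-3 and GM-CSF receptors, was at 49.7 to 66.2 CPM in the 3 high libraries and at 147 to 348 CPM in the other vehicle libraries. The 11 transcription regulators summed to 326, 458 and 759 CPM in libraries 12 of batch A, 12 of batch C and 14, and to 400.0 to 1380 CPM in the other vehicle libraries. The 8 lipid mediator and cytokine genes summed to 194 to 211 CPM in the 3 high libraries and to 274 to 331 CPM in the other vehicle libraries. The median log2 changes of these lists in the LSK treatment comparisons lay between -0.53 and 0.16. Single genes of the lists differed in direction. Il5ra, the receptor chain for IL-5, was at 10.5 CPM in vehicle library 12 of batch A, 7.80 CPM in vehicle library 12 of batch C and 4.94 CPM in vehicle library 14, and at 1.52 to 2.96 CPM in the other vehicle libraries. Day 7 libraries held 5.28 to 6.31 CPM of Il5ra. Siglec5, the table's row for Siglecf, a surface lectin of mature eosinophils, was at 13.2, 15.7 and 15.4 CPM in the 3 high libraries and at 20.4 to 43.1 CPM in the other vehicle libraries. Cebpe, a C/EBP factor of granulocyte maturation, was at 4.80, 10.3 and 6.77 CPM in the 3 high libraries and at 1.23 to 3.28 CPM in the other vehicle libraries. The 4 other Ear rows (Ear5, Ear10, Ear11, Ear14) summed to at most 1.34 CPM in every LSK library. Among the lists of other cell types, the B lineage sum was 7963 CPM in vehicle library 8 and 2541 CPM in vehicle library 14.

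The 6 genes outside the members whose level over the 16 LSK libraries was most like the members' sum were ranked among 12093 genes with a mean of at least 5 CPM. They were Rnase12 (Pearson 0.919), a ribonuclease gene of the same superfamily, then Gapt (0.837), Igkv8-28 (0.809), Anpep (0.752), Nucb2 (0.725) and Btla (0.695). Rnase12 ranged from 1.29 to 17.4 CPM (median 3.01 CPM) and was highest in vehicle library 12 of batch C. Igkv8-28 was at a median of 0.0797 CPM with a highest value of 394 CPM.

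Tamoxifen day 3 against vehicle in LSK cells gave no call among the members. In edgeR's quasi-likelihood test with Benjamini-Hochberg adjustment over 26930 genes, 0 of 6 members passed an adjusted p of 0.05, beside 0.0% of all genes called. The median log2 change of the members was -3.75, against -0.02 over all genes. The log2 change (± SE) was -3.78 ± 1.78 for Prg2 and 0.43 ± 1.06 for Ear2, with adjusted p of 1.0 for both. DESeq2 also called 0 members.

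Day 7 gave the same picture. With 0 of 6 members called beside 0.104% of all genes, the median log2 change was -2.76, against -0.09 over all genes. Epx changed by -3.48 ± 1.71 on the log2 scale (adjusted p = 0.595 in edgeR) and Ear6 by -2.92 ± 1.17 (adjusted p = 0.391 in edgeR). No member had every day 3 or every day 7 library below, or every one above, its vehicle libraries; 2.07% of all genes were wholly lower and 1.96% wholly higher on day 3, and 2.18% and 1.34% on day 7. Some granule genes of neutrophil and monocyte progenitors were called in the same day 7 comparison. Of 6 listed, Elane (2.58 ± 0.47, adjusted p = 0.0388) and Ms4a3 (2.14 ± 0.38, adjusted p = 0.0356) rose and 0 fell in edgeR. Since the members were not called, a movement opposite to theirs was not shown. Of 10 late neutrophil granule genes 3 rose, S100a8 by 5.10 ± 0.49 on the log2 scale.

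The sign of the LSK tamoxifen values rested on vehicle libraries 12 and 14 for every member at both days except Ear2 on day 3, which was positive with and without them. These were the 2 highest vehicle libraries of batch A for every member, so leaving them out shifts each value upward by construction. Without both, which was tried after seeing the data and left 2 vehicle libraries in batch A, the log2 change on day 7 was 1.89 ± 1.46 for Prg2, 2.51 ± 1.09 for Prg3, 3.25 ± 1.68 for Epx, 3.36 ± 0.93 for Ear1, 1.78 ± 0.84 for Ear2 and 1.80 ± 0.81 for Ear6. On day 3 it was then 1.35 ± 1.47 for Prg2 and 4.09 ± 0.96 for Ear2. None of these passed the test, with adjusted p in edgeR from 0.0848 upward on day 3 and from 0.123 upward on day 7. Without library 12 alone the direction of all 6 members stayed as with all libraries at both days.

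Ruxolitinib against vehicle of batch C in LSK cells also gave 0 of 6 calls, beside 0.0223% of all genes. The median log2 change was -6.41, against -0.25 over all genes. Prg2 changed by -6.93 ± 2.16 (adjusted p = 0.457 in edgeR) and Ear6 by -6.68 ± 1.66 (adjusted p = 0.329 in edgeR). Prg2, Prg3, Epx and Ear6 were lower in every ruxolitinib library than in every vehicle library, as were 12.3% of all genes. DESeq2 called Ear1 (-6.03 ± 1.65, adjusted p = 0.0482) and Ear6 (-6.59 ± 1.60, adjusted p = 0.0192). Number 12 was also left out of both vehicle batches, a choice made after seeing the data. It held the higher vehicle value of batch C for every member, so leaving it out shifts each value upward by construction. A single vehicle library then remained in batch C, taken to vary like the other groups. The log2 change was then -2.32 ± 1.96 for Prg2, -0.54 ± 1.74 for Prg3, -1.66 ± 2.23 for Epx, -0.22 ± 1.72 for Ear1, 0.17 ± 1.54 for Ear2 and -1.10 ± 1.47 for Ear6.

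**Figure D3:**
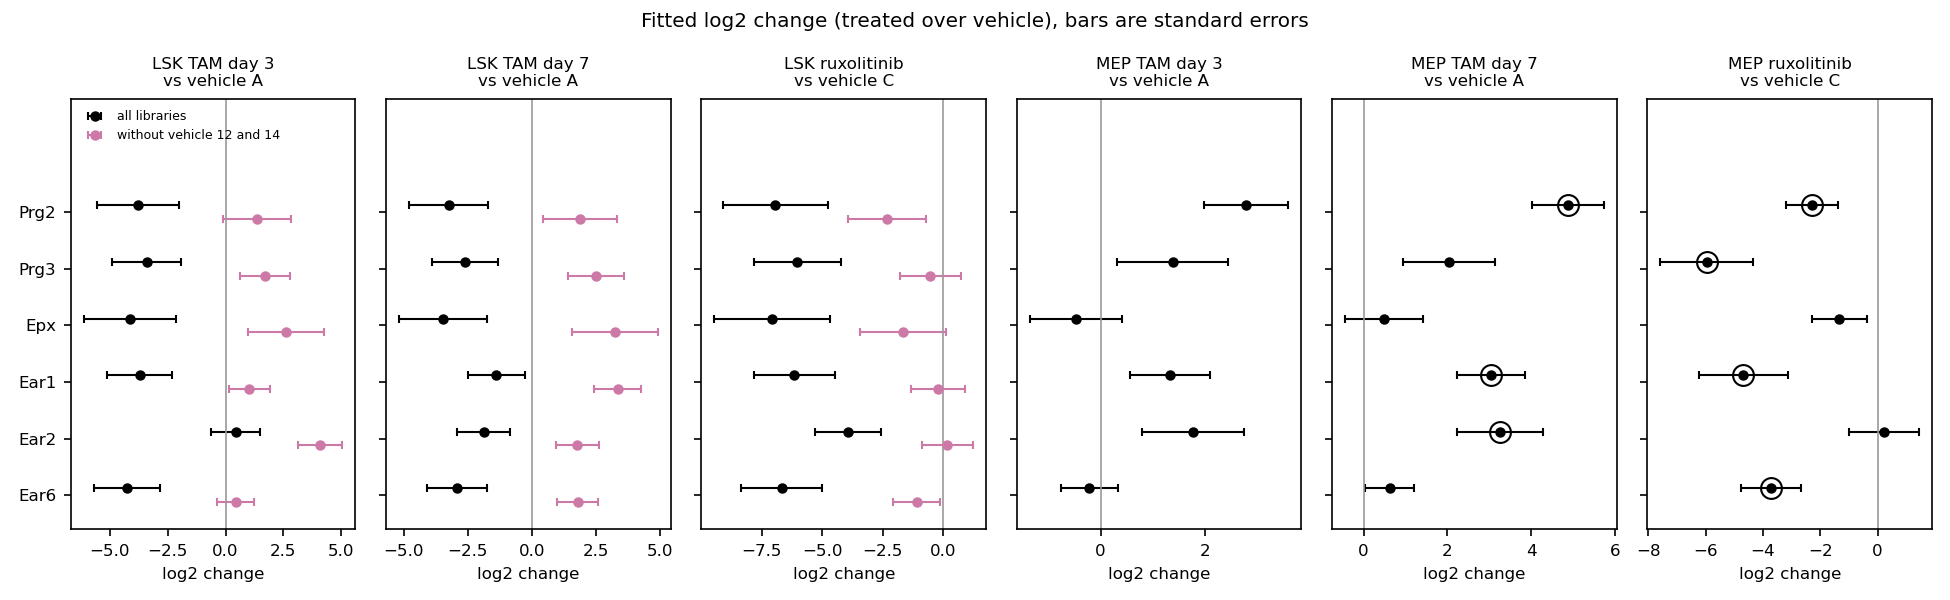
Fitted log2 change of each member, treated over vehicle, with standard errors, for the 6 treatment comparisons; the horizontal scales differ between panels, rings mark an adjusted p of at most 0.05, and the second colour in the LSK panels leaves out vehicle libraries 12 and 14. In LSK cells at day 7 the Prg2 value is -3.25 with all libraries and 1.89 without those, and no LSK value is ringed. Those libraries were the highest for these genes in their vehicle groups, so the shift upward follows from the choice.

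In MEPs the granule genes were close to the limit of detection. Prg2 had 2, 7 and 1 counts in vehicle libraries 12, 32 and 33 of batch A, 10, 37, 35 and 22 counts in day 3 libraries 13, 25, 29 and 34, and 73, 77 and 142 counts in day 7 libraries 15, 18 and 7. In CPM the day 7 libraries held 2.63, 3.60 and 6.30, all above the day 3 libraries (0.391 to 1.45 CPM), and these all above the vehicle libraries (0.0409 to 0.276 CPM). In batch C it had 6, 1 and 0 counts in the ruxolitinib libraries, against 15, 14 and 4 in vehicle.

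On day 3 of tamoxifen in MEPs, 0 of 6 members were called by edgeR, beside 1.21% of 25274 genes. Prg2 had a log2 change of 2.79 ± 0.81 (adjusted p = 0.108 in edgeR). Prg2 alone was higher in every treated library than in every vehicle library, as were 5.42% of all genes. DESeq2 gave no adjusted p for these members. The median of the members was 1.35, against 0.0 over all genes.

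On day 7 in MEPs, Prg2, Ear1 and Ear2 rose. The log2 change was 4.87 ± 0.86 for Prg2 (adjusted p = 0.000325 in edgeR), 3.05 ± 0.81 for Ear1 (adjusted p = 0.0175) and 3.25 ± 1.02 for Ear2 (adjusted p = 0.0477), so 3 of 6 members were called higher and 0 lower, where 1.38% of all genes were called higher. Ear1 was at 1.80, 2.10 and 4.04 CPM on day 7, against 0.505, 0.0395 and 0.409 CPM in vehicle. Ear2 was at 2.30, 1.40 and 1.15 CPM on day 7, against 0.138, 0.197 and 0.163 CPM in vehicle. Day 7 and vehicle libraries did not overlap for Prg2, Ear1, Ear2 or Ear6, which was at 2.66, 2.34 and 2.62 CPM on day 7, against 1.19, 1.70 and 2.04 CPM in vehicle; 15.2% of all genes were wholly higher. Ear6 (0.62 ± 0.58), Prg3 (2.03 ± 1.10) and Epx (0.49 ± 0.93) did not pass, with adjusted p from 0.345 to 0.817 in edgeR.

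The day 7 calls in MEPs were not equally firm. Leaving out any of the 6 libraries left 1 or 2 of the 3 calls, and the adjusted p in edgeR and DESeq2 over all alternatives was at most 0.00429 for Prg2 but reached 0.0939 for Ear1 and 0.164 for Ear2. Some genes of other cells, and the sum of genes not used in marrow, moved with the members in the same libraries. The summed odorant and pheromone receptor rows were at 734, 995 and 670 CPM on day 7, against 404, 487 and 565 CPM in vehicle, although 1 of 646 tested was called higher. S100a8 (5.40 ± 0.75, adjusted p = 1.41e-05), the immunoglobulin gene Igkc (6.09 ± 0.87, adjusted p = 2.2e-05) and the LSK gene Ly6a (5.45 ± 1.13, adjusted p = 0.0019) rose in edgeR, as did Siglec5 (1.78 ± 0.46, adjusted p = 0.0127). Most genes of their lists were not called: 2 of 10 late neutrophil granule, 2 of 10 B lineage, 3 of 7 LSK-defining and 1 of 8 eosinophil receptor genes were called higher. Of the monocyte, marrow macrophage and T lineage lists, 0 genes were called. All 4 tested genes of the megakaryocyte list were called higher, with a median log2 change of 3.24 and a summed level of 175 to 374 CPM on day 7, against 19.9 to 56.4 CPM in vehicle. Of the 6 granule genes of neutrophil and monocyte progenitors 3 were called higher (38.6 to 57.9 CPM summed on day 7, against 9.31 to 12.1 CPM in vehicle), and of the 7 MEP and erythroid genes 4 were called lower, with a median of -1.76. The marrow macrophage list summed to 46.3 to 54.8 CPM on day 7, against 25.2 to 39.1 CPM in vehicle. Over the 16 MEP libraries the odorant receptor sum correlated with Ear6 at 0.86, Ear1 at 0.68, Prg2 at 0.63 and Ear2 at 0.61 (Spearman 0.97, 0.90, 0.74 and 0.82). The part of these genes in the result was not tested.

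**Figure D4:**
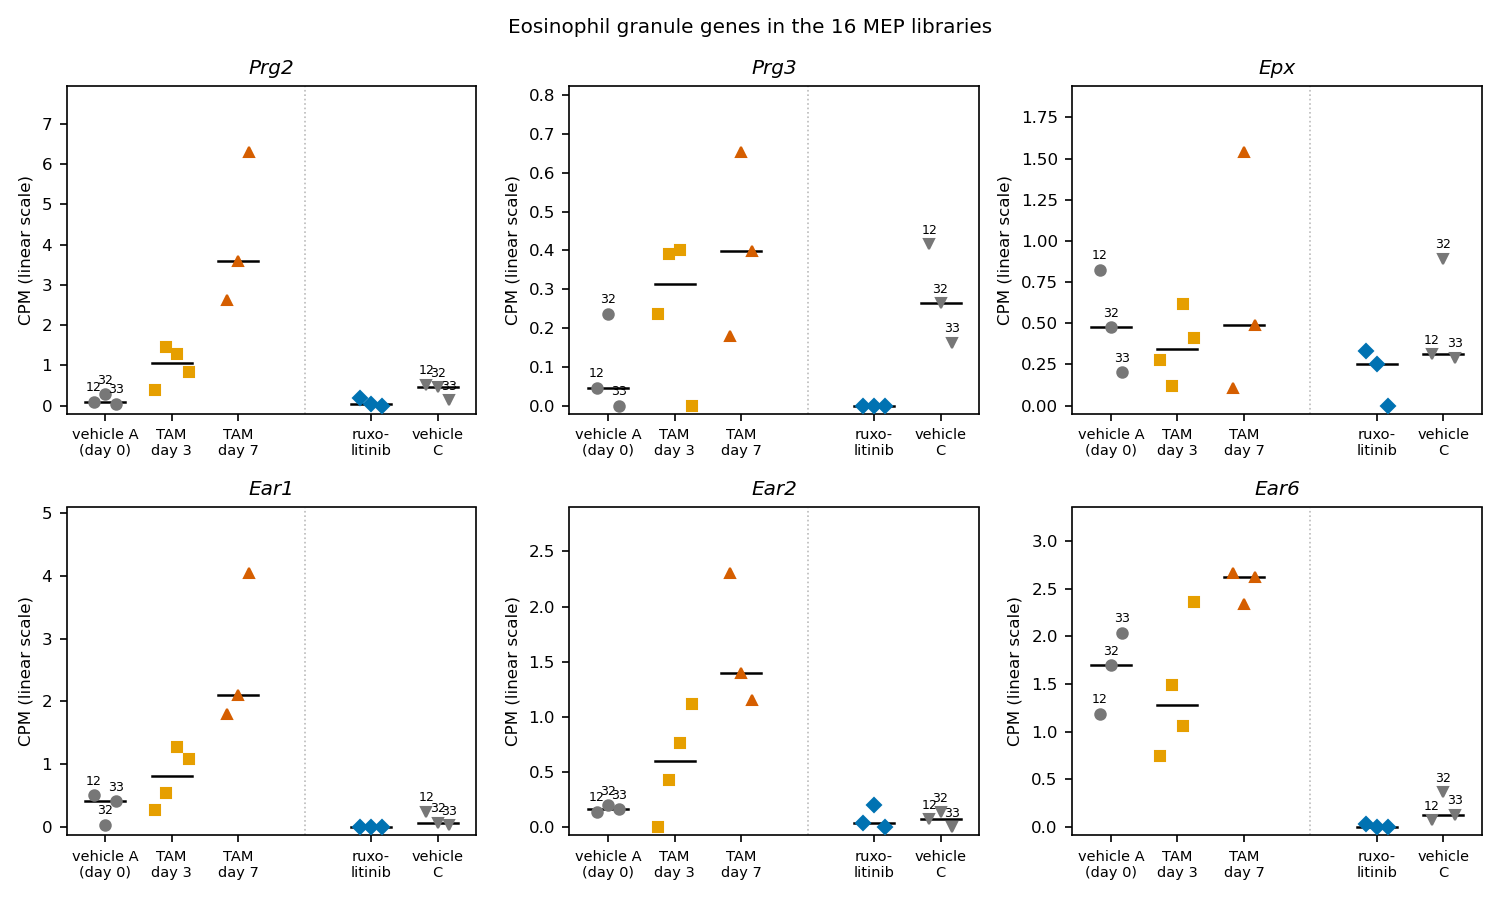
CPM of the 6 granule genes in each MEP library (points, linear scale) by group, with group medians as bars and label numbers above the vehicle libraries. Prg2 reaches 2.63 to 6.30 CPM on day 7 and stays at or under 0.52 CPM in all vehicle libraries of both batches.

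Ruxolitinib against vehicle in MEPs gave 4 lower members, where 38.5% of all genes were called lower and the median change over all genes was -1.07. Prg3 had 0 counts in all 3 ruxolitinib libraries, against 12, 8 and 5 in vehicle, at least 9.21-fold lower by a floor of 3 counts over the group (adjusted p = 0.00607 in edgeR). Ear1 had 0 counts, against 7, 2 and 1 in vehicle, where only library 12 was above 3 counts. With the vehicle counts taken as exact, it was at least 3.68-fold lower by the same floor (adjusted p = 0.0205 in edgeR). Prg2 fell by 2.28 ± 0.90 on the log2 scale (adjusted p = 0.0439 in edgeR), and Ear6, with 1, 0 and 0 counts against 2, 11 and 4, also passed (adjusted p = 0.00695). Epx (-1.34 ± 0.96) and Ear2 (0.23 ± 1.22) did not pass.

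The odorant and pheromone receptor rows were at 64.1, 45.4 and 15.5 CPM in these ruxolitinib libraries, against 259, 378 and 117 CPM in vehicle, and 328 of 646 tested were called lower with a median log2 change of -3.06. The members' median of -3.00 lay near that of those rows. Late neutrophil granule genes (7 of 10 called lower, median -2.85), monocyte genes (5 of 9, median -1.69) and T lineage genes (4 of 4 tested, median -2.52) were also called lower. The granule genes of neutrophil and monocyte progenitors went the other way: 6 of 6 were called higher, with a median of 3.83 and a summed level of 61.3 to 206 CPM under ruxolitinib, against 4.3 to 10.9 CPM in vehicle. Megakaryocyte genes were called higher in 3 of 4 tested, with a median of 3.46. The part of these genes in the members' result was not tested.

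Prg3, Ear1 and Ear6 were lower in every ruxolitinib library than in every vehicle library, as were 35.4% of all genes. Leaving out ruxolitinib library 2 or 3, or vehicle library 12 or 32, left 2 of the 4 calls. The adjusted p in edgeR and DESeq2 over all alternatives was at most 0.0247 for Prg3. It reached 0.0696 for Ear6, 0.113 for Ear1 and 0.149 for Prg2. Ear6 also differed between the vehicle batches: number 32 had 11 counts in batch C and 43 in batch A, and number 33 had 4 in batch C and 50 in batch A.

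The 6 genes most like the members' sum over the MEP libraries, among 9797 ranked, were Afap1 (Pearson 0.975), Atat1 (0.962), Mpdz (0.95), Gm4117 (0.946), Inadl (0.944) and Asxl3 (0.943). Each of them correlated with the odorant receptor sum at 0.88 to 0.97. None of them was among the 6 most like the members in LSK cells.

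Between cell types, 3 to 6 of the 6 granule genes were lower in MEPs than in LSK cells, depending on the condition. In a fit of all 32 libraries and 28378 genes, edgeR called 6 of 6 members lower in MEPs in vehicle of batch A (8.71% of all genes lower), 4 on day 3 (6.57%), 3 on day 7 (4.76%), 6 in vehicle of batch C (8.46%) and 4 under ruxolitinib (30.2%). Prg2 differed by -13.20 ± 2.18 in vehicle of batch A (adjusted p = 2.8e-05), -6.66 ± 1.46 on day 3 (adjusted p = 0.00134), -5.19 ± 1.49 on day 7 (adjusted p = 0.0281), -12.40 ± 2.09 in vehicle of batch C (adjusted p = 3.7e-05) and -7.55 ± 1.95 under ruxolitinib (adjusted p = 0.00297), as log2 of MEP over LSK. Ear1 and Ear6 passed on neither day of tamoxifen. The vehicle calls of batches A and C may not be independent, since label numbers recur between those batches.

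Within single label numbers the contrast varied by gene and by number. Number 12 had 2 Prg2 counts in MEPs and 73862 in LSK cells of batch A, and 15 and 150728 in batch C, so the libraries with the most LSK granule RNA had no matching MEP level. On day 7 the MEP level of Prg2 was 1.27%, 5.47% and 4.10% of the LSK level for numbers 15, 18 and 7, while that of Ear6 was 39.8%, 33.3% and 35.9%. On day 3 the MEP level for number 29 was 0.433% of the LSK level for Prg2 and 24.5% for Ear6, but 164% for Ear1, which was thus higher in MEPs. For day 3 number 25, where Prg2 in LSK cells was at 4.4 CPM, it was 38.3% for Prg2, 52.9% for Prg3, 21.5% for Epx, 64.0% for Ear1, 3.0% for Ear2 and 97.9% for Ear6.

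These counts depended on few libraries. Without LSK vehicle library 12, 1 of 6 members was called in vehicle of batch C, and without libraries 12 and 14, 3 were called in vehicle of batch A. Without day 3 LSK library 29, 1 was called and the Prg2 difference was -1.34. Without any of the day 7 MEP libraries, 0 were called on day 7, and without ruxolitinib LSK library 2 or any ruxolitinib MEP library, 2 were called.

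The difference in treatment effect between the cell types was tested directly. In edgeR 0 of 6 members were called for day 3 (0.0529% of all genes), day 7 (0.458%) or ruxolitinib (0.292%). For Prg2 the day 7 effect in MEPs minus that in LSK cells was 8.01 ± 2.18 on the log2 scale (adjusted p = 0.096 in edgeR). DESeq2 called 2 members on day 7 and 0 in the other comparisons of effects.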

How the data were processed

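RNA from sorted LSK cells and MEPs was isolated with a Direct-Zol kit and made into paired-end libraries with a Takara kit, per the labels' protocols. The deposited table holds raw read counts per gene symbol, made by the authors with STAR and featureCounts on mm10, per the submitters' processing notes; versions, strand setting and the treatment of reads that match several genes are not stated in the labels or the file. Of 33924 genes 933 had no count. Samples were grouped by cell type, treatment, day and batch from the titles and characteristics.

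Counts were tested with edgeR 4.0.16 (quasi-likelihood test, TMM factors, filterByExpr with a minimum count of 10, Benjamini-Hochberg threshold 0.05) in R 4.3.3, with 1 fit for the 16 LSK libraries, 1 for the 16 MEP libraries and 1 for all 32. Each treatment was set against vehicle of its own batch. The standard error is the log2 change divided by the square root of F. Alternatives were RLE factors, DESeq2 1.42.0, other filters, a replicate block, the compared groups only, pooled vehicle batches and leaving out each library. The code was tested on simulated data. A floor of 3 counts covers counting error only. All members and the named genes of fixed lists are reported, with the 6 non-members most like them by Pearson correlation of log2(CPM + 0.5). Members and lists were chosen with earlier results of these data known.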

Additional observations from a re-analysis of the deposited data

How the results depend on the processing

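The number of members called out of 6 kept within 1.5 times its value under most alternatives. DESeq2 gave 2 for LSK ruxolitinib (0 in edgeR), 1 for MEP day 7 (3 in edgeR; adjusted p was not given for 4 members) and 2 for the day 7 difference between cell types; restricting to genes with a mean of at least 10 CPM also gave 2 there. Pooled vehicle batches, where the same numbers count in both batches, gave 6 for LSK ruxolitinib, when 5341 genes were called in all. The compared groups only gave 1 for MEP day 3 (Prg2). Chosen after seeing the data, leaving out LSK vehicle numbers 12 and 14 gave 3 for MEP against LSK in vehicle A, and leaving out 12 gave 1 in vehicle C. Leaving out 1 library gave 1 to 2 for MEP day 7, 2 to 4 for MEP ruxolitinib, 1 to 4, 0 to 3, 1 to 6 and 2 to 4 for MEP against LSK on day 3, on day 7, in vehicle C and under ruxolitinib, and 0 to 1 for the differences between cell types on day 3 and on day 7.

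Directions reversed without LSK vehicle numbers 12 and 14: on day 3 for Prg2 (1.35), Prg3 (1.70), Epx (2.61), Ear1 (1.03) and Ear6 (0.44), on day 7 for Prg2 (1.89), Prg3 (2.51), Epx (3.25), Ear1 (3.36), Ear2 (1.78) and Ear6 (1.80), and under ruxolitinib for Ear2 (0.17, also without 12 alone). Pooled vehicles reversed Ear6 in MEPs on day 3 (0.64) and Ear2 in MEPs under ruxolitinib (-0.51). Leaving out 1 library moved Ear2 in LSK cells from -0.97 to 1.06 on day 3 and from -4.88 to 0.26 under ruxolitinib, and in MEPs Epx from -0.92 to 0.09 and Ear6 from -0.59 to 0.03 on day 3, Epx from -0.85 to 1.04 on day 7 and Ear2 from -1.77 to 1.13 under ruxolitinib. LSK vehicle numbers 12 and 14 were the highest vehicle libraries for these genes, so leaving them out shifts the LSK treatment values upward by construction. The cause of the changes in direction was not tested beyond the libraries named.

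Titles share replicate numbers, but treated and vehicle libraries with the same title number did not deviate together (correlations from -0.381 to 0.369), so they were not paired. Vehicle batches A and C were not set against each other in that check. Between those batches, LSK vehicle libraries with the same label number were close in the granule genes, as given above. In the treatment comparisons the replicate block was the title number. With it, 3 members were called for MEP ruxolitinib, and Ear1 in LSK cells on day 7 turned to 0.08. For MEP against LSK the block was instead the label number within a condition, which gave 4 on day 7 and 6 under ruxolitinib. Counts in the other fitted comparisons did not move.

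Calls over all genes moved more: 0 to 129, 2 to 911 and 2 to 5341 for LSK day 3, day 7 and ruxolitinib (0, 28 and 6 in the reported fits), and 98 to 773, 1313 to 4950 and 1123 to 14634 for the MEP comparisons (306, 2128 and 10605). The MEP members were below the filter of a mean of 10 CPM, and for ruxolitinib also below the filter with the compared groups only, so no value was had there. At 0 to 142 counts per library, depth limits every MEP value.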
